A study of Homo sapiens with 12 samples.

Results

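The comparison described here is tazemetostat (EZH2i), an inhibitor of the histone methyltransferase EZH2, against DMSO vehicle in C4.2B cells, with 3 polyA RNA-seq libraries in each arm, 6 of the 12 libraries of the series. Its members are the 16646 genes, of 58735 gene rows in the count table, that passed a filter on low counts. C4.2B, a human prostate cancer line descended from LNCaP, grows without androgen, a state that all arms share. EZH2i cells received 1 µM tazemetostat for 6 days. All arms were then switched to medium with 10% charcoal-stripped FBS, which is depleted of steroid hormones, and RNA was collected 24 hours later with the drugs still present. The remaining arms, used here as libraries outside the comparison, received 0.25 µM of the AKT inhibitor ipatasertib (AKTi) or both agents (combination). One cell line was used. Per the study's methods, replicate plates were seeded after the pretreatment, and the sources do not say that the pretreatment itself was repeated, so the p-values measure the spread between plates.

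EZH2 is the catalytic subunit of PRC2, which with EED and SUZ12 places the repressive mark H3K27me3 on chromatin. The mark lies mainly over genes that a tissue does not use, such as developmental regulators and genes of other lineages, and the related complex PRC1 binds it and keeps chromatin compact. Tazemetostat blocks the enzyme without removing it, and the existing mark is lost as chromatin is copied and turned over, so genes held silent by PRC2 can come on days after the drug is added. Because of this, genes that were silent in DMSO are described below apart from genes that were already expressed.

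Total counts ranged from 14565714 to 22276417 in DMSO and from 14560651 to 21021563 in EZH2i. More genes had at least 1 count with EZH2i (23955 to 24969) than with DMSO (22495 to 23008), and mitochondrial transcripts took 4.35% to 5.31% of counts with EZH2i against 2.37% to 3.36% with DMSO. All 15 luminal prostate markers passed the filter, which was applied once over all 12 libraries. Among them KLK3 (PSA) averaged 1372 CPM in DMSO, 2342 with AKTi, 2890 with EZH2i and 3941 with the combination. These markers are of luminal prostate cells in general and do not single out C4.2B. Most markers of other cell types stayed under 1 CPM. The summed level of 8 fibroblast markers was 6.43 to 9.56 CPM (counts per 1e6 of the TMM-scaled library) in DMSO and 18.9 to 20.6 CPM in EZH2i, that of 6 endothelial markers 2.59 to 3.39 and 5.74 to 6.90 CPM, and that of 8 leukocyte markers 0.369 to 0.875 and 0.335 to 1.69 CPM. Of these markers, 5, 5 and 8 stayed under 1 CPM in every DMSO and EZH2i library, and 1, 1 and 2 had no count. In such bulk libraries, a change in how many cells express a gene and a change in RNA per cell cannot be told apart.

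EZH2i changed the level of 10670 of 16646 genes (64.1%) (edgeR, quasi-likelihood test, Benjamini-Hochberg threshold 0.05), 5421 higher (32.6%) and 5249 lower (31.5%). The near-even split came with TMM scaling, under which the log2 fold changes of all genes had a median of 0.03. Scaling by library size only raised that median to 0.17 and gave 6630 higher and 4193 lower genes, and upper-quartile scaling raised it to 0.15 and gave 6412 and 4374. Changes of gene groups are therefore read against the median of all genes. The sizes of the changes were less even than their number. Among genes expressed in DMSO at a mean of at least 1 CPM, 1161 rose and 1101 fell at least 2-fold, but 225 rose and 44 fell at least 4-fold, and 38 rose and 2 fell at least 8-fold.

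**Figure D1:**
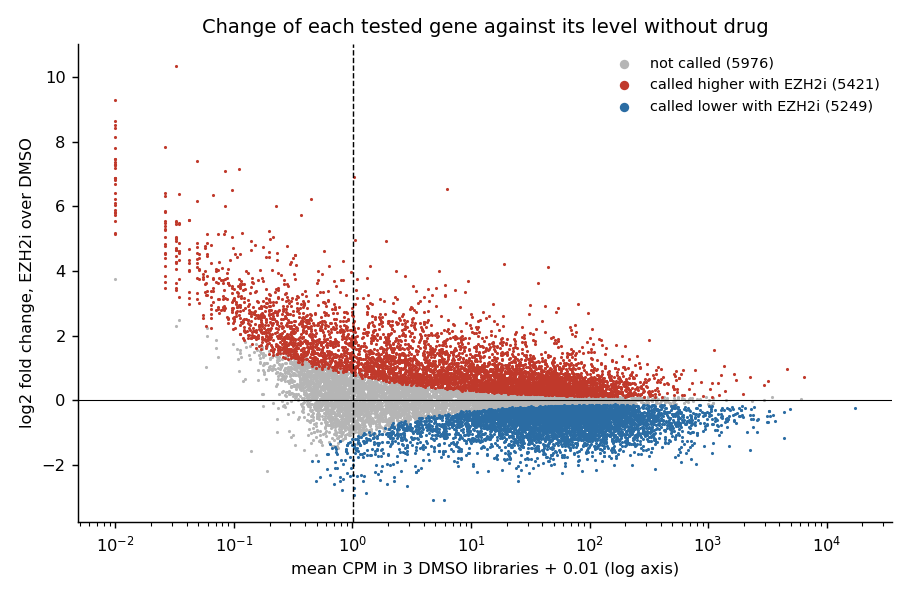
Log2 fold change of EZH2i over DMSO (vertical axis) against the mean CPM in the 3 DMSO libraries (horizontal log axis, 0.01 added) for the 16646 tested genes, coloured by call, with the dashed line at 1 CPM. Large rises lie mainly at the left, among genes near 0 in DMSO, and falls stay within about 3 log2 units.

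Among genes above the reach of the filter, the share of falls was larger at higher levels. To sort genes by a level that the comparison did not use, they were binned by their mean CPM in the 3 AKTi libraries. Of 4350 tested genes at 1 to 10 CPM, 1547 were higher with EZH2i (35.6%) and 681 lower (15.7%). Of 7329 genes at 10 to 100 CPM, 2265 were higher (30.9%) and 3168 lower (43.2%), and of 2287 genes at 100 CPM or more, 602 were higher (26.3%) and 1305 lower (57.1%). Under 1 CPM the calls are a description only, since genes there pass the filter more easily when an arm raises them. In the bin of 0.1 to 1 CPM 2538 of 6180 genes passed it, and under 0.1 CPM 142 of 38587.

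**Figure D2:**
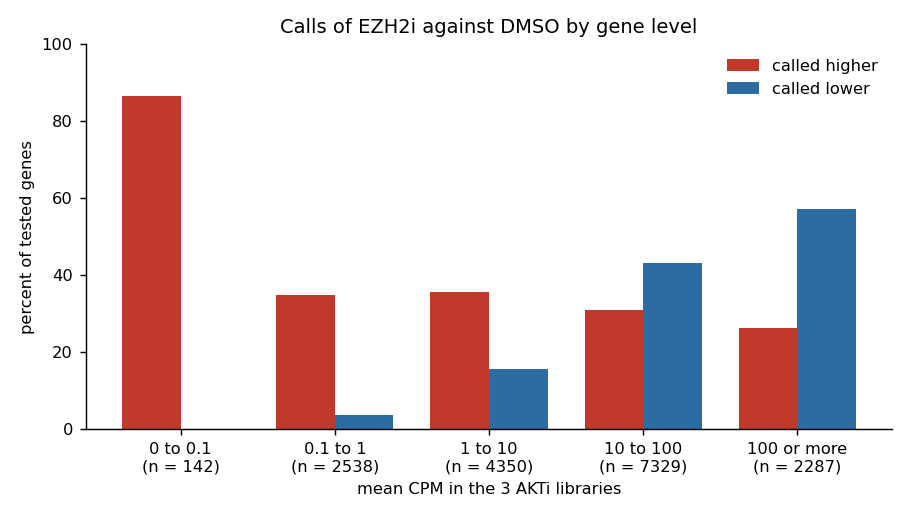
Percent of tested genes called higher (red) or lower (blue) with EZH2i against DMSO, by the mean CPM of the gene in the 3 AKTi libraries, which are not part of the comparison, with the number of genes under each bin. The blue bars go from 15.7% at 1 to 10 CPM to 57.1% at 100 CPM or more, and both bins under 1 CPM hold only the genes that passed the filter.

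Silent genes came on, and none went off by the same limits. A gene was taken as silent with at most 3 counts in each of the 3 libraries of an arm, and as on with at least 1 CPM in every library of the other arm. In DMSO 38872 gene rows were silent, 6105 of them protein-coding, and in EZH2i 36871 were, 5151 of them protein-coding. Of the genes silent in DMSO, 53 were on with EZH2i, 43 protein-coding, 6 lincRNA or antisense genes and 4 of other kinds. Those 43 are 0.704% of the silent protein-coding genes, so most silent genes stayed silent or below the limit of 1 CPM. Among the genes silent with EZH2i, 0 were on in DMSO. These counts use the values that choose the genes and are a description, without a test. At the edge of the limit, FXYD5 was just inside with a lowest EZH2i library of 1.01 CPM and TTC34 just outside with 0.994 CPM, while 64 further genes were on with EZH2i but had 4 to 6 counts in their highest DMSO library.

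The upstream sequence of 3 of the most strongly expressed switched-on genes is shown because these genes had at most 2 counts in any DMSO library and their windows differ widely in CpG dinucleotides, the sites of DNA methylation. Each is the 250 bases before the RefSeq start in GRCh38.p14, 5′ to 3′ on the strand of the gene, with CG in capitals. The windows lie at chr12:85874045-85874294 (plus strand) for NTS, chr14:104978375-104978624 (minus strand) for AHNAK2, which has a second RefSeq start not shown, and chr9:115118158-115118407 (minus strand) for TNC.
NTS: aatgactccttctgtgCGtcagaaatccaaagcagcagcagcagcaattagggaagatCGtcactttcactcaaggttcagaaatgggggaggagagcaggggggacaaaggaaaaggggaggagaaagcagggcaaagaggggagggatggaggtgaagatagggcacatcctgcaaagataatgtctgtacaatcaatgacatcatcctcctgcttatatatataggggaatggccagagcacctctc
AHNAK2: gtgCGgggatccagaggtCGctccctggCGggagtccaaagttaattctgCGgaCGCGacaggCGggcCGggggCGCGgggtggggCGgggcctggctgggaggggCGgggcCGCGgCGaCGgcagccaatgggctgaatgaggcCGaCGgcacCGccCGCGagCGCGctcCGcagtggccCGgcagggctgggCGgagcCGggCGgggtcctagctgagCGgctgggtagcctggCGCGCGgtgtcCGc
TNC: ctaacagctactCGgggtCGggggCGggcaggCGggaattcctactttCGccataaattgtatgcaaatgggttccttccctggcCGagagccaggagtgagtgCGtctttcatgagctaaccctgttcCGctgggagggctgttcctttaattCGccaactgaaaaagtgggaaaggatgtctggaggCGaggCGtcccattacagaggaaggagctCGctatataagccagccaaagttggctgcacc
The NTS window holds 2 CpGs, that of TNC 12 and that of AHNAK2 33, with observed-to-expected CpG ratios of 0.141, 0.649 and 0.942. Across all 35116 promoter entries of the table, 47.5% of the same 250-base windows reach a ratio of 0.6. Promoter entries matched 34 of the 43 protein-coding switched-on genes (79.1%), too few for a comparison of CpG content between classes of genes, which is void for that reason.

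The switched-on genes with the highest CPM included secreted peptides, matrix proteins and receptors. NTS, which encodes the neuropeptide neurotensin, had 1, 0 and 0 counts in DMSO and 38.4, 33.8 and 36.7 CPM with EZH2i. AHNAK2, a large scaffold protein, had 2, 1 and 2 counts in DMSO and 15.6, 15.2 and 15.5 CPM with EZH2i, 152-fold in summed CPM with an exact 95% counting interval of 64.9 to 469. Tenascin C (TNC), an extracellular matrix glycoprotein, had 1, 0 and 1 counts and then 7.30, 8.12 and 8.82 CPM, and its ratio of 201 carried an interval of 55.4 to 1668. The 3 EZH2i libraries lay close together for each of these genes and far above DMSO, where single reads set the lower side of the ratio.

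AOC1, which encodes the histamine-degrading diamine oxidase, had 0, 3 and 0 counts in DMSO and 11.9, 6.60 and 9.83 CPM with EZH2i. CALB2, the calcium-binding protein calretinin of certain neurons, had 0, 0 and 1 counts and then 7.77, 4.79 and 6.39 CPM. The kappa opioid receptor gene OPRK1 had no count in DMSO and 4.82, 4.79 and 4.41 CPM with EZH2i, at least 76.3-fold above the level of 3 counts over the DMSO group. The others of the 12 protein-coding genes with the highest CPM were SHC2, an adaptor of receptor tyrosine kinases, EFNB3, an ephrin ligand, the transglutaminase TGM2, the protocadherins PCDH19 and PCDHB13, and the calsyntenin CLSTN2, with means between 3.42 and 5.52 CPM with EZH2i. The remaining protein-coding switched-on genes lay lower, while the lincRNA LINC00578 reached a mean of 4.19 CPM. The median over all 53 was 2.14 CPM.

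Some of the switched-on genes are known from prostate, semen or steroid conversion. SEMG2, which encodes the semen protein semenogelin, had no count in DMSO and 1.21, 2.05 and 1.79 CPM with EZH2i. TGM4, the prostate transglutaminase, had 1, 3 and 3 counts and then 2.01, 1.52 and 1.19 CPM, and AKR1C3, a steroid-converting enzyme, had 3, 1 and 0 counts and then 2.54, 1.99 and 1.75 CPM. These genes were picked from the 53 after their values were seen.

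Libraries outside the comparison gave the same direction, although their plates may share the pretreated culture with the EZH2i arm. AKTi alone left 22 of the 53 genes silent, and 18 of these were at 1 CPM or more in every combination library. Over all 53, 51 were called higher in the combination than in AKTi, against 32.1% of all tested genes. The exceptions were TNFSF18 (log2 fold change 1.58, adjusted p = 0.14) and the lincRNA AC073174.2 (1.11, adjusted p = 0.159), by edgeR. Genes silent in DMSO could pass the filter through the arms with EZH2i, so the count of 51 is a description only. The 32.1% is no like comparison, since 13778 of the 16646 tested genes were expressed in DMSO. CALB2 had no count in any AKTi library and 6.59, 6.92 and 6.4 CPM in the combination. NTS reached 17.2, 16.8 and 16.7 CPM in the combination, below its level with EZH2i alone, whereas SHC2 reached 10.4, 11.9 and 9.18 CPM, above it.

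**Figure D3:**
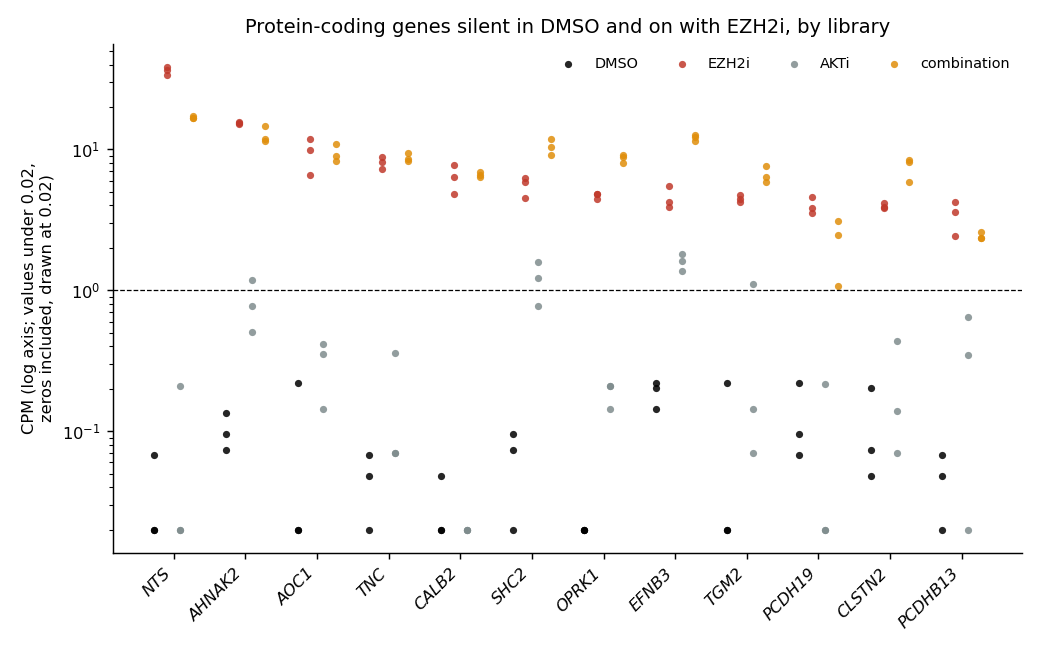
CPM per library (log axis) of the 12 protein-coding genes silent in DMSO that had the highest mean with EZH2i, for the DMSO, EZH2i, AKTi and combination arms, 3 points each, with the dashed line at 1 CPM and values under 0.02 drawn at 0.02. Every EZH2i and combination point lies above the line, every DMSO point at or below 0.221 CPM, and AKTi points reach 1 CPM for AHNAK2, SHC2, EFNB3 and TGM2.

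The beta-protocadherins, neuronal cell adhesion proteins encoded side by side at chr5:141051135-141249365 (hg38), were higher in sum, and 2 of the 14 that were silent in DMSO, PCDHB13 and PCDHB14, met the limit for on. The 16 genes together had 8, 6 and 15 counts in the DMSO libraries and 405, 480 and 706 counts in the EZH2i libraries, 27.1 to 32.4 CPM. For 14 of the 16, every EZH2i library lay above every DMSO library, as for 33.8% of all tested genes, and for 14 of 16 every combination library lay above every AKTi library, as for 34.2%. PCDHB5, PCDHB2, PCDHB13 and PCDHB14 were the 4 highest with EZH2i. PCDHB5 was the highest, with 0.0673, 0 and 0.192 CPM in DMSO and 8.44, 9.41 and 11.7 CPM with EZH2i, and PCDHB2 followed with 0.269, 0.148 and 0.144 CPM and then 7.70, 7.6 and 6.43 CPM. PCDHB1, at the start of the cluster, had 0, 0 and 1 counts in both arms. Reads could be shared among these similar genes, so the sum is firmer than the value of one gene. The neighbouring gamma-protocadherins, which were partly expressed in DMSO, had 18 of 19 tested genes higher, with a median log2 fold change of 2.40, although these genes share exons and their counts are not independent. The summed alpha-protocadherins stayed low, at 0.0673 to 0.295 CPM in DMSO and 1.34 to 1.47 CPM with EZH2i. The cluster was singled out after its values were seen.

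**Figure D4:**
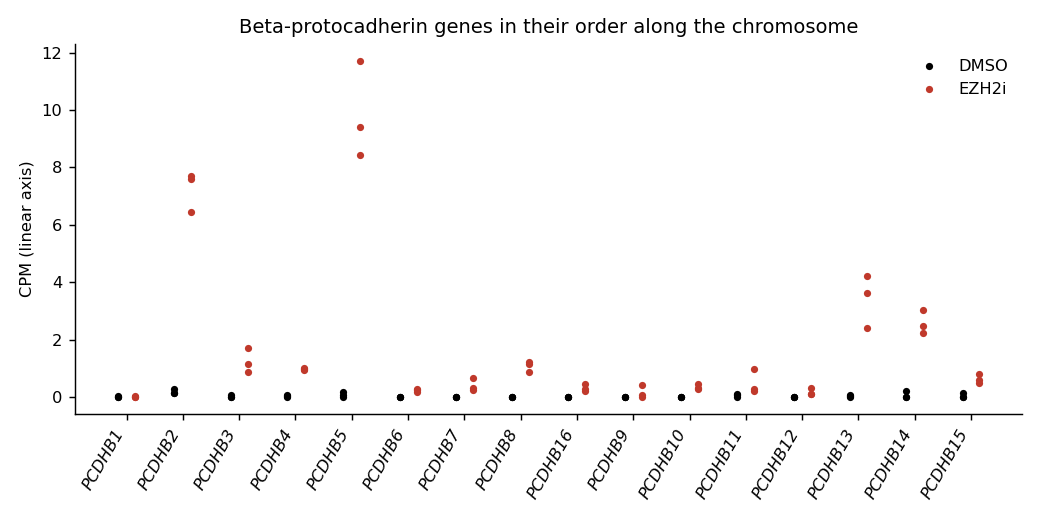
CPM per library (linear axis) of the 16 beta-protocadherin genes in chromosomal order, 3 DMSO libraries in black and 3 EZH2i libraries in red. DMSO points lie near 0 throughout, and the EZH2i points are highest for PCDHB5, PCDHB2, PCDHB13 and PCDHB14.

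Clustered protocadherin promoters are known for a short conserved element that binds the insulator protein CTCF. A 9-base word, GGTGGCGCT, was found by comparing the RefSeq windows of the cluster and was present in 12 of 14 beta-protocadherin windows of 250 bases before the start, all on the sense strand, and absent from those of PCDHB1 and PCDHB8. Counted on both strands, it occurred in 0.41% of all 35116 promoter windows and in 0 of 13 alpha- and 0 of 20 gamma-protocadherin windows. The word was chosen from the windows of the cluster, so these shares are a description only. Windows were available for 14 of the 16 beta-protocadherin genes. The windows of 4 cluster genes are shown with the word in capitals, since most windows of the cluster share it. They lie on the plus strand of GRCh38.p14 at chr5:141094365-141094614 for PCDHB2, chr5:141100223-141100472 for PCDHB3, chr5:141134956-141135205 for PCDHB5 and chr5:141213669-141213918 for PCDHB13.
PCDHB2: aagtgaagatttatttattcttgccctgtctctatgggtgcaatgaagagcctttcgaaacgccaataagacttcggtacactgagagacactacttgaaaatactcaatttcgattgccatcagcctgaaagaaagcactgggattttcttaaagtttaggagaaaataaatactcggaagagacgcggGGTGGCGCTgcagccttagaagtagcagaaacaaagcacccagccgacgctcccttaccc
PCDHB3: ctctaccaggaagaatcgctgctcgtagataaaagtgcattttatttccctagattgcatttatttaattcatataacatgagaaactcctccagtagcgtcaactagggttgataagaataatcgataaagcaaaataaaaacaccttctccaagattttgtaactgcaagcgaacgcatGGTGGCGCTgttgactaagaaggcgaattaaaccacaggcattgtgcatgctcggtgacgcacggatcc
PCDHB5: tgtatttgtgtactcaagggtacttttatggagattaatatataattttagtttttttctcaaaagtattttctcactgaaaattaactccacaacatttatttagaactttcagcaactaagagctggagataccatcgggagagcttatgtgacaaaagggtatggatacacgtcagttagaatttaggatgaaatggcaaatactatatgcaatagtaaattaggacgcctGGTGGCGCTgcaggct
PCDHB13: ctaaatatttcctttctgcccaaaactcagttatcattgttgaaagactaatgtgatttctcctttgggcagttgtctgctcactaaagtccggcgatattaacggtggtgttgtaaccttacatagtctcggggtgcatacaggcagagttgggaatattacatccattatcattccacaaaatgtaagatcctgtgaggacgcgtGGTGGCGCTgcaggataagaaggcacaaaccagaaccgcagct
The word ended 51, 60, 7 and 34 bases before the RefSeq start in these windows. PCDHB8, whose window lacks it, had no count in DMSO and 1.14, 0.877 and 1.24 CPM with EZH2i. PCDHB9, whose window holds the word, had 0, 0 and 0 counts in DMSO and 1, 0 and 9 with EZH2i, which overlapped. Only this exact word was searched for, so other forms of the element would be missed. The part of the word in the rises was not tested.

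A second neighbourhood, also picked after its values were seen, was that of the olfactory receptor genes OR51E1 and OR51E2 on chromosome 11, receptors long used as prostate markers. OR51E2 had no count in DMSO and 2.68, 2.16 and 2.94 CPM with EZH2i, and OR51E1 went from 0.0673, 0.148 and 0.432 CPM to 14.7, 17.1 and 16.7 CPM. Of 44 OR51 genes and pseudogenes in the table, 43 were silent in DMSO and 3 passed the filter, all 3 higher, the last being the pseudogene OR51A9P. These 3 passed the filter through the arms with EZH2i, so their shared direction is a description only.

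Genes at a low level in DMSO, not silent but under 1 CPM, formed a wider group. Of 6084 such genes 2586 passed the filter, 995 of them called higher and 41 lower. These counts are a description, because the class is set on the DMSO values and such genes pass the filter more easily when EZH2i or another arm raises them. The largest rises beside PCDHB5, OR51E1 and PCDHB2 were those of BACE2, an aspartyl protease related to the beta-secretase, and the secreted glycoprotein OLFM2. BACE2 had 0.606, 0.369 and 0.336 CPM in DMSO and 32.7, 35.2 and 30.5 CPM with EZH2i (log2 fold change 6.24 ± 0.16, SE, adjusted p = 9.25e-28, edgeR). OLFM2 went from 0.202, 0.295 and 0.575 CPM to 24.3, 19.1 and 19.5 CPM. Neither group of libraries overlapped the other.

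Classic PRC2 target families were raised in part. Of 39 HOX genes, which pattern the body axis, 13 were silent in DMSO and 11 of these remained silent with EZH2i. Of 25 tested, 6 were silent or low in DMSO and could pass the filter through EZH2i, and 3 of these rose. Over all 25, 13 rose and 3 fell, with a median log2 fold change of 0.79. Of the 13, 6 lay in the HOXC cluster, with HOXC4 going from 2.42, 2.66 and 1.39 CPM to 12.8, 10.3 and 11.7 CPM (2.47 ± 0.19, adjusted p = 3.97e-14, edgeR) and HOXC9 from 9.63, 9.66 and 9.59 CPM to 31.5, 25.2 and 28.1 CPM, while HOXA10, HOXA11 and HOXD13 fell. HOXB13, the HOX gene of the prostate, was at 424 CPM on average in DMSO and 457 CPM with EZH2i and did not pass the test (log2 fold change 0.10).

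Of 140 developmental transcription factors, 81 were silent in DMSO, and 59 of these stayed silent with EZH2i. Among the 58 tested, 26 rose and 10 fell, and the median was 0.23 beside 0.03 over all genes. Members silent or low in DMSO, 17 of the 58, could pass the filter through EZH2i, and 9 of these rose. Without EZH2i replicate C the median was 0.08, and with at least 10 counts required in every library it was 0.12. SOX9, a regulator of cartilage and of prostate budding, rose from 10.2, 8.63 and 10.6 CPM to 45.6, 47.0 and 55.5 CPM, and FOXD1, a factor of kidney stroma, from 0.404, 0.369 and 0.719 CPM to 8.50, 6.02 and 6.43 CPM. WT1, the Wilms tumor factor, fell from 7.67, 7.97 and 7.72 CPM to 3.01, 1.93 and 2.99 CPM. The group thus held changes of both directions, with most of its members at or near 0 throughout.

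Axon guidance genes, ligands and receptors that steer growing nerve fibres and vessels, moved more uniformly. Of 54 tested, 47 rose, 1 fell and 6 did not pass the test, with a median log2 fold change of 0.96, and 3 of the 70 listed were switched on (EFNB3, SEMA5A and NTN4). Members silent or low in DMSO, 12 of the 54, could pass the filter through EZH2i, and 11 of these rose. Among the 42 already expressed, 36 rose and 1 fell. NRP1, a coreceptor for semaphorins and VEGF, was at 42.3 CPM in each DMSO library and rose to 306, 313 and 332 CPM (2.91 ± 0.063, adjusted p = 3.91e-30, edgeR). The ephrin receptor EPHA5 rose from 0.539, 0.885 and 0.288 CPM to 12.8, 13.3 and 13.6 CPM, and the semaphorin SEMA6D from 0.404, 0 and 0.0959 CPM to 3.55, 6.25 and 3.86 CPM. EPHA2 was the exception, with 13.3, 14.3 and 16.3 CPM in DMSO and 9.78, 4.50 and 6.75 CPM with EZH2i.

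Voltage-gated channels, the proteins of electrical excitability, had 13 higher and 2 lower of 21 tested, with a median of 1.59, and 34 of the 59 listed were silent in DMSO. Of the 21, 12 were silent or low in DMSO and could pass the filter through EZH2i, and with at least 10 counts required in every library the median was 0.51. The calcium channel gene CACNA1D rose from 1.88, 2.43 and 1.63 CPM to 6.36, 8.12 and 6.29 CPM, whereas the potassium channel gene KCNQ5 fell from 11.7, 15.1 and 14.5 CPM to 3.75, 2.81 and 2.62 CPM. Of 10 tested WNT ligands and antagonists, 5 rose, such as WNT5A (2.08 ± 0.15), and 2 fell, WNT8B and WNT10B (-1.80 ± 0.16). Here 3 of the 10 were silent or low in DMSO and could pass the filter through EZH2i, and 2 of these rose. Neuroendocrine and neuronal markers were mostly silent in DMSO, 18 of 29. Among the 7 tested, SYT4, RET and ENO2 rose and DLL3 and ONECUT2 fell. The vesicle protein gene SYP had a log2 fold change of 0.46 that did not pass the test.

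Genes listed as EZH2 targets from older work were mostly higher. The list was written with earlier results of these data known. It holds BMF, which the study itself reported as raised in these cells, so its counts are a description. Of 12 tested, 8 rose and 2 fell, with a median of 1.62, but by library size only or upper-quartile scaling 0 fell. BMF, a pro-apoptotic BH3-only member of the BCL-2 family, rose from 6.60, 5.02 and 6.47 CPM to 52.8, 57.3 and 59.8 CPM (3.22 ± 0.12, adjusted p = 5.61e-23, edgeR). CDKN1C, an inhibitor of cyclin-dependent kinases, rose from 0.740, 1.48 and 0.911 CPM to 10.2, 7.48 and 7.03 CPM, and the metalloproteinase inhibitor TIMP2 from 31.8, 37.4 and 31.0 CPM to 132, 138 and 146 CPM. In the BCL-2 family as a whole, 6 of 18 rose and 5 fell, near the 32.6% higher and 31.5% lower over all tested genes. BCL2L11 (BIM) was among those that rose (0.98 ± 0.08), whereas PMAIP1 (NOXA), also a BH3-only gene, fell from 19.3, 18.7 and 16.7 CPM to 4.22, 4.27 and 3.9 CPM.

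Germline and cancer-testis genes, often held silent by DNA methylation, did not share this direction. Of 20 listed, 11 were silent in DMSO and 9 in both arms, and of 8 tested 4 fell and the other 4 did not pass the test. MAGEA1 was among those that fell (-0.63 ± 0.055). By library size only and by upper quartile 1 of the 8 rose.

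The complex that the drug targets changed at the RNA level too. EZH2 itself fell from 79.6, 74.0 and 73.8 CPM to 34.1, 37.5 and 34.2 CPM (-1.10 ± 0.076, adjusted p = 2.16e-15, edgeR), and EED and SUZ12 fell by 0.54 and 0.40 on the log2 scale. These transcripts do not measure the block of the enzyme, which tazemetostat leaves in place. Of 13 tested PRC2 subunits 8 fell and 4 rose, with a median of -0.30 that was -0.16 by library size only. JARID2, an accessory subunit that recruits PRC2, went the other way, from 27.7, 25.9 and 26.7 CPM to 74.5, 75 and 74.4 CPM. Among 23 PRC1 subunits, 11 rose and 10 fell, with PHC1 at 3.77, 4.43 and 4.70 CPM in DMSO and 18.5, 14.8 and 19.4 CPM with EZH2i. Of enzymes acting on H3K27me3 and DNA methylation, the demethylase KDM6B (1.14 ± 0.064) and the methyltransferase DNMT3A (1.61 ± 0.1) rose, and DNMT1 (-1.01 ± 0.058) and its partner UHRF1 (-1.72 ± 0.078) fell.

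Among genes already expressed in DMSO, 4164 of 13778 rose and 5208 fell, with a median log2 fold change of -0.07, and by library size only 5238 rose and 4162 fell. The largest rise in log2 fold change was that of ADRA2A, the alpha-2A adrenergic receptor, from 1.14, 1.03 and 0.911 CPM to 133, 114 and 124 CPM (6.92 ± 0.15, adjusted p = 8.97e-30, edgeR). The transcription factor MAF rose from 0.942, 1.18 and 1.01 CPM to 33.5, 31.6 and 32.4 CPM, and the glucose transporter SLC5A1 from 2.09, 1.70 and 1.97 CPM to 55.9, 55.5 and 63.6 CPM. ADRA2A and MAF lay at the 1 CPM line in DMSO, so their class rests on the limit. Further up the scale, ACPP, which encodes prostatic acid phosphatase, rose from 17.5, 21.8 and 17.1 CPM to 331, 354 and 361 CPM, and SYT4, a synaptotagmin of secretory vesicles, from 46.4, 42.7 and 45.1 CPM to 769, 774 and 798 CPM. The kinases SRMS and PLK2 and the surface glycoprotein CD24 completed the 8 largest rises among protein-coding genes, with log2 fold changes of 4.15, 4.0 and 4.0.

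One non-coding gene, picked after its values were seen, rose as steeply from a higher level. COLCA1, annotated as antisense on chromosome 11, went from 6.6, 6.71 and 5.66 CPM in DMSO to 542, 593 and 617 CPM with EZH2i (6.54 ± 0.081, adjusted p = 1.22e-37, edgeR). The groups lay far apart, and it averaged 41.6 CPM with AKTi and 1322 CPM with the combination. Without strand in the sources used here, its reads cannot be told apart from those of a gene on the other strand.

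Luminal and androgen-responsive genes were largely higher, in hormone-depleted medium. Of 15 luminal markers, 12 rose and 1, EPCAM, fell, with a median of 0.45. The androgen-responsive genes KLK3, from 1389, 1338 and 1389 CPM to 2759, 3007 and 2906 CPM (1.07 ± 0.05, adjusted p = 4.18e-20, edgeR), and TMPRSS2, from 50.0, 56.6 and 55.8 CPM to 381, 406 and 387 CPM, were among those that rose. Of 29 androgen-responsive genes 18 rose and 9 fell, with a median of 0.93. TRPM8, NDRG1 and KLK2 were among those that rose. The genes that fell included FKBP5 (-0.84 ± 0.06), a chaperone that is a classical target, and CENPN and NCAPD3, which also serve mitosis.

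Matrix and mesenchymal genes changed without a full set of basal or mesenchymal markers. Of 20 such markers 11 were silent in DMSO and 7 in both arms, and of 8 tested 5 rose and 1 fell. Of the 8, 4 were silent or low in DMSO and could pass the filter through EZH2i, and 2 of these rose. Fibronectin (FN1) rose from 1027, 1165 and 1162 CPM to 3182, 3362 and 3418 CPM and vimentin (VIM) from 7.67, 7.74 and 9.49 CPM to 31.0, 33.4 and 33.4 CPM, whereas SNAI1 fell. The summed fibroblast markers given above moved with these genes, mainly through COL1A1 (5.67 to 16.8 CPM on average), and their part in the result was not tested.

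Immune genes were raised at low levels. Of 28 tested interferon-stimulated genes 18 rose and 4 fell, with a median of 0.77, and of 20 antigen presentation genes 13 rose and 1, TAP2, fell, with a median of 0.81. Members silent or low in DMSO, 7 and 5 of these, could pass the filter through EZH2i, and 7 and 4 of them rose. Among members already expressed, 11 of 21 interferon-stimulated genes rose and 4 fell. For antigen presentation, 9 of 15 expressed genes rose and 1 fell. IFI44 rose from 0.269, 0.369 and 0.240 CPM to 2.81, 1.99 and 2.57 CPM. HLA-B rose from 16.7, 12.8 and 15.6 CPM to 34.3, 36.7 and 36.4 CPM, while B2M, the shared light chain of class I molecules, did not pass the test (-0.03). ISG15, one of the more abundant interferon-stimulated genes, was slightly lower, from 35.9, 33.0 and 27.3 CPM to 29.5, 27.1 and 25.9 CPM, with overlapping libraries. By library size only, 1 of the 28 interferon-stimulated genes fell.

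Lysosome and autophagy genes rose in 25 of 31 cases and fell in 3, with a median of 0.46. GABARAPL1, which coats autophagosomes, rose from 15.4, 13.9 and 16.4 CPM to 51.0, 52.4 and 56.2 CPM, and the autophagy kinase ULK1 by 1.34 ± 0.066. By library size only 28 rose and 1 fell.

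Genes of cell proliferation fell as blocks. All 38 tested DNA replication genes were lower with EZH2i, with a median log2 fold change of -1.36, and so were all 30 mitotic genes, with a median of -0.90. Under library size only and upper-quartile scaling these counts were again 38 and 30. MCM10, which helps to start replication forks, fell from 88.4, 84.8 and 87.5 CPM to 17.3, 17.7 and 22.3 CPM (-2.18 ± 0.085, adjusted p = 2.06e-22, edgeR), and CDC6, a loader of the replicative helicase, from 159, 149 and 172 CPM to 36.2, 45.2 and 39.6 CPM. The mitotic kinase gene CDK1 fell from 615, 564 and 561 CPM to 184, 209 and 183 CPM, and MKI67, the proliferation marker, less strongly from 203, 226 and 215 CPM to 131, 144 and 147 CPM. Among inhibitors of cyclin-dependent kinases, CDKN1C, CDKN2B and CDKN1A rose, and CDKN2D and, with overlapping libraries, CDKN2A fell.

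Nucleolar ribosome assembly factors fell in 38 of 39 cases, with a median of -1.08, and the remaining gene, NOP10, did not pass the test. NOP56, a core protein of box C/D particles, fell from 342, 339 and 326 CPM to 115, 125 and 120 CPM, and the helicase DDX21 from 634, 606 and 695 CPM to 186, 224 and 212 CPM. MYC, a regulator of ribosome production and growth, fell from 240, 246 and 254 CPM to 94.3, 89.8 and 102 CPM (-1.37 ± 0.057, adjusted p = 1.78e-21, edgeR), and MXD4, a MYC antagonist, rose (1.41 ± 0.065). Of 12 tested members of the MYC network, 3 rose and 4 fell, near the 32.6% higher and 31.5% lower over all tested genes.

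Metabolic and stress genes were mostly lower. Of 22 glycolytic genes 16 fell and 3 rose, with a median of -0.58. Hexokinase 2 (HK2) fell from 98.2, 110 and 122 CPM to 40.5, 38.9 and 40.1 CPM and lactate dehydrogenase A (LDHA) from 1491, 1454 and 1520 CPM to 553, 588 and 550 CPM, while HIF1A, the hypoxia factor listed with them, rose from 146, 142 and 160 CPM to 216, 249 and 246 CPM. Of 30 sterol and fatty acid synthesis genes 25 fell and 1, TM7SF2, rose, with a median of -0.54. The desaturase gene FADS1 fell from 271, 272 and 271 CPM to 78.5, 88.2 and 92.8 CPM.

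Of 28 ATF4-responsive genes, which serve amino acid supply under stress, 24 fell and 2, ATF3 and NUPR1, rose, with a median of -1.06. PSAT1, of serine synthesis, fell from 800, 758 and 807 CPM to 185, 212 and 202 CPM, and the pseudokinase TRIB3 from 225, 216 and 241 CPM to 59.5, 47.7 and 62.7 CPM. ATF4 itself fell from 723, 717 and 703 CPM to 422, 411 and 430 CPM. Of 26 p53 targets, 8 rose and 11 fell, beside 32.6% higher and 31.5% lower over all tested genes. SESN1 was the highest, from 33.5, 27.1 and 31.6 CPM to 182, 196 and 207 CPM.

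**Figure D5:**
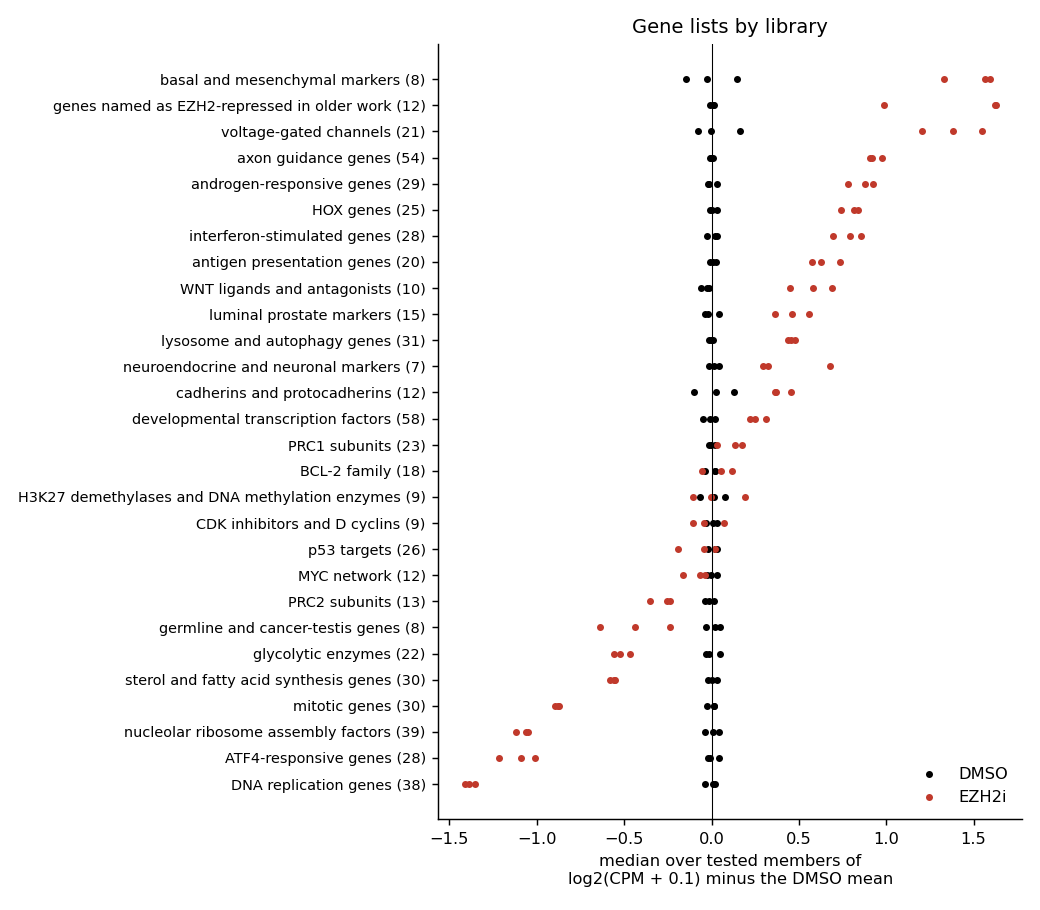
Median over the tested members of each gene list (number in parentheses) of log2(CPM + 0.1) minus the mean of the 3 DMSO libraries, 1 point per library, DMSO in black and EZH2i in red. The EZH2i points of replication, ATF4-responsive, nucleolar and mitotic genes lie at -0.87 or below, and those of basal and mesenchymal markers, older EZH2 targets and voltage-gated channels at 0.99 or above.

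The largest falls among expressed protein-coding genes were in genes at low levels. TERT, the catalytic subunit of telomerase, fell from 5.25, 5.97 and 6.38 CPM to 0.402, 0.877 and 0.735 CPM (-3.09 ± 0.31, adjusted p = 6.8e-11, edgeR), and the homeobox gene MKX, a tendon factor, from 4.17, 3.69 and 6.43 CPM to 0.268, 0.643 and 0.735 CPM. TNFAIP2, ZNF492, RNASEH2A, U2AF1L5, SPIC and RUNX1 followed, with log2 fold changes between -2.86 and -2.36. U2AF1L5 is a near-identical copy of U2AF1, its counts are uncertain for that reason, and DMSO replicate B alone stood at 63.7 CPM against 6.4 and 5.37 CPM in A and C. Without that library U2AF1L5 no longer passed the test. RUNX1, a blood lineage factor, went from 1.75, 2.14 and 2.78 CPM to 0.670, 0.234 and 0.413 CPM.

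In absolute terms, the largest losses were in translation and protein folding. EEF1A1, which delivers aminoacyl-tRNA to ribosomes, went from 18187, 17618 and 16709 CPM to 14483, 15414 and 14958 CPM, a fall that did not pass the test by library size only. The chaperone genes HSPA8, from 4426, 4297 and 4302 CPM to 1823, 1993 and 1951 CPM, and HSPD1, from 2262, 2190 and 2317 CPM to 745, 817 and 801 CPM, fell more steeply. HSP90AB1, HSP90AA1 and the glycolytic enolase ENO1 made up the rest of the 6 largest losses. GAPDH, often used as a reference gene, fell from 3314, 3251 and 3336 CPM to 2409, 2363 and 2382 CPM.

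The largest gains in CPM were those of MT-CO1, FN1, MT-ND4, KLK3, MT-CO2 and MT-CYB. All 13 tested protein-coding mitochondrial genes were higher, by 0.47 to 1.02 on the log2 scale. MT-CO1, a subunit of cytochrome c oxidase, went from 5638, 8182 and 5512 CPM to 10926, 11407 and 9390 CPM. DMSO replicate B was the highest of its arm for MT-CO1 and still below every EZH2i library, whereas for MT-CO3 it lay within the EZH2i range. The share of mitochondrial reads was higher in the EZH2i libraries, as given above, and its part in these gains was not tested.

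The EZH2i effect was present when AKT was inhibited as well, measured in 6 libraries that share none with the comparison. Plates of both contrasts may stem from the same pretreated and untreated cultures, which the sources do not say. The 2 contrasts may therefore not be independent. Of the 5421 genes higher with EZH2i, 3909 (72.1%) were higher in the combination than in AKTi and 226 (4.17%) lower, and of the 5249 lower with EZH2i, 4078 (77.7%) were lower and 187 (3.56%) higher. Across the 16646 genes, which are not independent of each other, the log2 fold changes of the 2 contrasts had a Pearson r of 0.80. A test of the difference between the contrasts called 4688 genes (28.2%).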

How the data were processed

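PolyA RNA of C4.2B cells was sequenced in 12 libraries, 3 per arm, and the comparison uses the EZH2i and DMSO arms. The authors aligned reads to hg38 with STAR and counted them per gene with HTSeq, and the deposited values are raw counts. Tool versions, the annotation release, the use of strand and any sequencing batch are not given in the sources used here, so antisense, overlapping and near-identical genes are uncertain. The authors' normalized table was not used.

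Counts were fitted with edgeR 4.0.16 in R 4.3.3 (quasi-likelihood test, TMM scaling, filterByExpr) with 1 mean per arm over the 12 libraries, which share 1 estimate of the spread, and the contrast of EZH2i minus DMSO was adjusted by Benjamini-Hochberg over 16646 genes at a threshold of 0.05. Errors are standard errors of the log2 fold change. CPM are counts per 1e6 of the TMM-scaled library. Total counts of 14560651 to 22276417 per library put 3 counts at 0.144 to 0.221 CPM in DMSO. Ratios against 1 to 9 DMSO counts carry exact 95% intervals that cover counting error only, and a gene with no DMSO count is set against 3 counts over the DMSO group. On simulated data for this contrast with 16185 genes tested, the test recovered 72 of 100 genes changed 1.5-fold and 88 of 100 changed 2-fold. It also called 12 genes that were not changed. Only these few genes were changed, whereas the real contrast called 64.1%, so the simulation does not cover the effect of scaling.

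The labels carry the same replicate letters in each arm. Library pairs within an arm differed beyond sampling noise, so each was counted as a replicate. Promoter and gene-start sequences came from RefSeq (GRCh38.p14). Named genes were members of fixed lists, the 12 protein-coding switched-on genes with the highest CPM, the 8 largest rises and falls by log2 fold change among expressed genes, the 6 largest gains and losses in CPM, the 5 largest rises among low genes, and 9 genes of the study's text. Of the 10 genes first set for that last rule, 1 is not reported here. Members, lists and limits were chosen with earlier results of these data known. Alternatives were DESeq2 1.42.0, other scalings, filters and limits, the replicate letter as a block, fits with 6 libraries and leaving out each library. Scripts used Python 3.11.15, pandas 2.3.3, numpy 2.4.6, scipy 1.17.1 and matplotlib 3.10.9.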

Additional observations from a re-analysis of the deposited data

Results flagged for a closer look

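For 28 of the 54 genes that the rule for single genes names, the EZH2i effect differed with AKT inhibited, by edgeR's test of the interaction term (combination against AKTi, minus EZH2i against DMSO) with Benjamini-Hochberg adjustment, which called 28.2% of all tested genes. Values are interaction log2 fold changes, negative where the effect was lower with AKTi present. The highest was that of ATF3, a stress-response transcription factor, at 2.03 (adjusted p = 3.47e-16), where EZH2i alone raised it by 0.43 and the combination raised it over AKTi by 2.46. MKX (1.47), MYC (0.34) and HSPD1 (0.22) were also positive, since they fell less with AKTi present.

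Among genes silent in DMSO, the values were -3.81 for OPRK1, -3.32 for PCDHB13, -3.22 for AHNAK2, -3.22 for SHC2 and -1.67 for EFNB3. Those fits start from few or no DMSO counts, so their sizes depend on the prior count. The level with AKTi alone also enters these values, and in mean CPM it was above DMSO for each. From DMSO to AKTi, SHC2 went from 0.0566 to 1.20 CPM, EFNB3 from 0.189 to 1.60 and AHNAK2 from 0.101 to 0.820. PCDHB13 went from 0.0384 to 0.333 CPM and OPRK1 from 0 to 0.188. In mean CPM, OPRK1, SHC2 and EFNB3 were higher in the combination than with EZH2i alone, and PCDHB13 and AHNAK2 lower. SPIC was at -4.39 and TERT at -2.20, both falling further with AKTi present, and SPIC had no count in the combination, so the size of its value depends on the prior count too. Rises that were smaller as ratios were those of OLFM2 (-1.73), SRMS (-1.38), MAF (-1.30), PLK2 (-1.01), CD24 (-0.67), SYT4 (-0.54), HIF1A (-0.34), KLK3 (-0.32) and FN1 (-0.31). A smaller ratio did not always mean a lower level. Mean FN1 was 1118 CPM in DMSO and 3321 with EZH2i, against 2461 with AKTi and 5899 in the combination. MAF, in contrast, was at 32.5 CPM with EZH2i and 25.1 in the combination. The mitochondrial genes MT-CYB (-0.67), MT-CO2 (-0.65), MT-ND4 (-0.51) and MT-CO1 (-0.34) rose less, and GAPDH (-0.61), ENO1 (-0.58), HSP90AA1 (-0.40) and HSP90AB1 (-0.37) fell further. Groups of 3 libraries were not tested for a library that stands apart.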

How the results depend on the processing

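The counts of 5421 higher and 5249 lower genes stayed within 1.5 times under every alternative run: 5255 and 5222 by DESeq2, 4827 to 5222 and 5010 to 5457 when 1 library was left out, and 6630 and 4193 by library size only. With the replicate letter as a block they were 5384 and 5249. The letters did not pair the libraries, with correlations of same-letter deviations of 0.038, 0.007 and 0.069. The 53 switched-on genes depended on the limits set: 7 with 0 DMSO counts required, 251 with up to 10 counts allowed, 161 at 0.5 CPM, 21 at 2 CPM, 22 when silence in AKTi was also required, and 65 to 84 with 1 library left out, 65 without DMSO A, 70 without DMSO B and 84 without DMSO C. Fewer libraries then have to meet the limit. The 0 switched-off genes became 10 with up to 10 counts allowed, 5 at 0.5 CPM and 0 to 1 with 1 library left out (TNFAIP2 without EZH2i A and FGF21 without EZH2i C, chosen by that limit). The 40 switched-on genes that were on in the combination became 50 at 0.5 CPM and 24 at 2 CPM. Of 678 values of 54 named genes under the alternatives, 676 kept direction and call and 0 reversed. The exceptions were U2AF1L5 without DMSO B and EEF1A1 by library size only, and the cause was not tested. Depth limits the silent genes, where 3 counts are 0.144 to 0.221 CPM.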

Other observations

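Annotated transcription factor families differed in how they moved, described without a test. Of 90 tested homeobox genes 45 rose and 11 fell, with a median log2 fold change of 0.46, and of 26 forkhead genes 14 rose and 4 fell, with a median of 0.49. Of 517 C2H2 zinc finger genes 142 rose and 150 fell, with a median of -0.01, beside 32.6% higher and 31.5% lower over all tested genes. Of 193 homeobox rows, 98 were silent in DMSO.

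SHISA2, a regulator of WNT and FGF receptor maturation that was silent in DMSO, was at 2.14, 2.86 and 2.48 CPM with EZH2i, 0.289, 0.14 and 0.0695 CPM with AKTi and 48.4, 41.5 and 46.2 CPM with the combination. It was picked after its values were seen. The median change of the ATF4-responsive genes was -1.06 on the log2 scale with EZH2i against DMSO and 0.63 in the combination against AKTi, where 18 of 28 rose and 7 fell. The interaction term was called in the positive direction for 26 of the 28.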
